A study of Mus musculus with 2 samples.

Results

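Large artery endothelial cells of the mouse mesentery numbered 176 of the 11273 cell barcodes in the 2 single-cell RNA libraries, 66 of them from the control library and 110 from the Flcn iΔEC library. They were chosen by their own unique molecular identifier (UMI) counts: at least 2000 UMIs in the cell, at most 10% of them mitochondrial, at least 2 of Cdh5 (VE-cadherin), at most 2 of Mki67 and Top2a together, at least 2 of Gja5 and Sema3g together, and at least 2 of Gkn3, Cytl1 and Serpinf1 together. CD31+ cells were taken with magnetic beads from the mesentery of C57BL/6 pups on postnatal day 8, and the cells of 3 mice were pooled for each library. The Flcn iΔEC pups carried Cdh5-BAC-CreERT2 and Flcn flox/flox, so that the tumour suppressor gene Flcn (folliculin) is removed in endothelial cells of blood and lymph vessels once the Cre is induced. Injections of 40 µg 4-hydroxytamoxifen under the skin on postnatal days 2, 3.5, 5 and 6.5 are listed for both libraries, and the sources used here do not give the genotype of the control pups. With 1 library per genotype no difference between genotypes could be tested, and every ratio below describes these 2 libraries.

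As background, the inner lining of a conduit artery differs from that of an arteriole. Endothelial cells of large arteries express connexin 40 (Gja5), lie on an elastic lamina built from elastin and fibulins, and respond to high shear stress, whereas small arteries and capillaries rest on a basement membrane rich in type IV collagen. Folliculin holds the MiT/TFE transcription factors, among them TFE3, in the cytoplasm when nutrients are plentiful, and these factors bind the sequence CACGTG in promoters of genes for lysosomes and autophagy.

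The members of the control library held 1446313 UMIs and those of the Flcn iΔEC library 2829685, with medians of 15592 and 19618 UMIs per cell (ranges 5623 to 90239 and 4464 to 76852). Levels are given as counts per 1000000 of these summed UMIs (CPM), with exact 95% Poisson intervals where given. Such intervals cover counting error only, since cells of 1 library are not replicates. The libraries shared 6 barcodes, and 0 of these were members. Flcn itself gave 8 UMIs in control and 20 in Flcn iΔEC members (5.53 and 7.07 CPM), which checks nothing, because reads from the 3′ end of the transcript can lie outside the removed part. Xist, the RNA of the inactive X chromosome, gave 0 and 869 CPM, so the sex of the pooled mice and the genotype cannot be told apart. Scrublet, a doublet caller, marked 0 members in either library, but it marked only 5 of all 4459 Flcn iΔEC cells against 142 of 6814 control cells.

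The label was checked against its markers. Gkn3 (gastrokine 3) was present in 49 of 66 control and 88 of 110 Flcn iΔEC members, Cytl1 (cytokine-like 1) in 68.2% and 79.1%, and Gja5 in 59 and 109 cells. These genes, with Serpinf1 (pigment epithelium-derived factor), chose the cells, so their levels are a description. Eln (elastin, chr5:134702593-134747323 on GRCm38), which the rule did not use, was present in 64 of 66 and 110 of 110 members. A set of 14 control members (21.2%) went against the label: they were in by Serpinf1 alone of the 3 genes, and their Eln level was 805 CPM, against 36189 CPM in the 40 control members with all 3 genes. Their cells had medians of 24.2 Cxcl12, 16.9 Igfbp7 and 13.8 Col4a1 UMIs per 10000, close to the medians of 19.5, 22.5 and 17.1 in other arterial cells of that library. The 9 Flcn iΔEC members with Serpinf1 alone (8.18%) held 12539 CPM of Eln. Results that rest on these cells are therefore given with them and for the 52 control and 101 Flcn iΔEC members with a Gkn3 or Cytl1 UMI.

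Large artery cells made up 14.4% (exact binomial 95% interval 11.3 to 18) of the 457 non-cycling Cdh5 cells in the control library and 14.8% (12.4 to 17.6) of the 741 in the Flcn iΔEC library. These shares differed by less than their counting intervals. Of all barcodes they were 0.969% and 2.47%. Of the arterial cells, those with at least 2 UMIs of Gja5 and Sema3g, they were 67.3% (57.1 to 76.5) of 98 and 82.1% (74.5 to 88.2) of 134, and the others, 32 and 24 cells, are called other arterial cells. Just outside the limit, with 1 UMI of Gkn3, Cytl1 and Serpinf1 together, stood 8 control and 4 Flcn iΔEC cells with 1493 and 11328 CPM of Eln. Just inside, with 2 UMIs, stood 5 and 6 cells with 1090 and 17044 CPM, while the 60 and 99 members with over 3 UMIs had 27362 and 29134 CPM. The limit thus fell among control cells of low Eln and among Flcn iΔEC cells of high Eln. Another 49 control and 29 Flcn iΔEC cells met every other limit with no Gja5 or Sema3g UMI, and these were not counted as members (Eln 15343 and 8221 CPM).

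Elastic fibre genes, which the rule did not use, set these cells apart from the other endothelial cells of both libraries. Control members had 25775 CPM of Eln (25514 to 26037) and Flcn iΔEC members 28455 CPM (28259 to 28653), against 535 and 2718 CPM in other arterial cells, 4461 and 3242 CPM in endothelial cells without arterial or lymphatic marks, and 4901 and 1416 CPM in cells with Prox1 or Lyve1. Per cell, Eln ran from 0 over a median of 317 to 781 UMIs per 10000 in control and from 6.19 over 298 to 816 in Flcn iΔEC members. The medians lay close together, and the control cells had the longer lower tail, which held the cells with Serpinf1 alone. Mgp (matrix Gla protein, an inhibitor of calcification) was at 10211 and 13955 CPM, with medians of 110 and 151 UMIs per 10000. It was present in 48 of the 52 control members with Gkn3 or Cytl1 and in 4 of the 14 without. Fbln5 (fibulin 5, which guides elastin onto microfibrils) was at 5483 and 5446 CPM and was present in every member of both libraries. In members with Gkn3 or Cytl1 it was at 6683 and 5579 CPM.

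**Figure D1:**
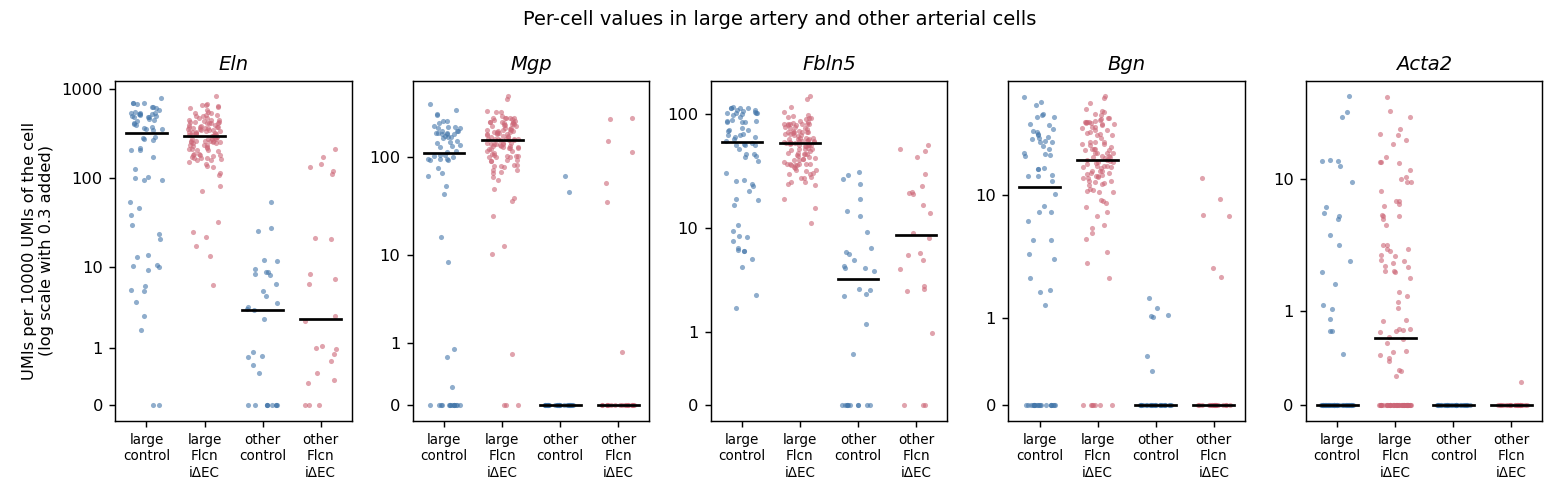
Points are cells, the y axis gives UMIs per 10000 UMIs of the cell on a log scale with 0.3 added, and black lines are medians over 66, 110, 32 and 24 cells. Eln, Mgp, Fbln5 and Bgn are higher in most large artery cells than in other arterial cells, the Flcn iΔEC other arterial cells include a few with up to 213 Eln UMIs per 10000, and Acta2 is present in 23 control and 65 Flcn iΔEC members.

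Large artery cells were set against other arterial cells in each library, to describe how they differ from the cells most like them. Of 8376 genes with at least 50 counts over both classes, 291 (3.47%) were at least 2-fold higher in large artery cells in both libraries and 287 (3.43%) at least 2-fold lower. The cells were chosen on their own counts, so these are no test of the classes. Of the 20 genes listed for large arteries and elastic fibres, 15 were compared, 11 were higher in both libraries and 0 lower, with median log2 ratios of 2.22 in control and 2.04 in Flcn iΔEC against -0.11 and -0.12 over all genes. Bgn (biglycan, a matrix proteoglycan) was at 1435 and 2134 CPM against 19.5 and 129 CPM. Lox (lysyl oxidase, which cross-links elastin and collagen) was at 324 and 241 CPM against 11.1 and 8.33 CPM. Mfap5, a microfibril component, was at 163 and 134 CPM and listed at 0 in other arterial cells of both libraries, at least 19.5-fold and 21.4-fold higher when the floor of 3 counts per class and library is used. Col5a2 (a type V collagen chain) was at 1182 and 1139 CPM against 44.6 and 129 CPM. The counting intervals of the 2 classes did not overlap for any of these genes in either library. This adds no support, since genes with large ratios in these same counts were the ones named.

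Genes outside the elastic fibre list were also among the 10 with the largest ratios. Gxylt2, a xylosyltransferase that extends sugars on Notch receptors, was at 209 and 143 CPM, at least 25-fold and 22.9-fold higher than in other arterial cells, where it was at 0. Meg3, a maternally expressed long noncoding RNA, was at 342 and 268 CPM against 0 and 4.16 CPM. Bmp4, a bone morphogenetic protein ligand, was at 134 and 113 CPM against 2.78 and 4.16 CPM. Tmem158 was at 814 and 794 CPM against 30.6 and 68.7 CPM, and Cpe (carboxypeptidase E) at 104 and 150 CPM against 2.78 and 6.24 CPM. Gxylt2, Bmp4, Cpe and Tmem158 were not restricted to large arteries, since cells with Prox1 or Lyve1 had 194, 185, 385 and 964 CPM in the control library. Among vasoactive and clotting genes, Edn1 (endothelin 1) was at 301 and 320 CPM against 61.3 and 35.4 CPM, Ptgis (prostacyclin synthase) at 87.1 and 104 CPM against 0 and 4.16 CPM, and Vwf (von Willebrand factor) at 805 and 1043 CPM against 131 and 181 CPM.

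Genes of capillaries and of the basement membrane were among those lower in large artery cells. Of all genes compared, 3.43% were at least 2-fold lower in both libraries and 3.47% higher. Of 11 capillary genes, 8 were compared and all 8 were lower in both libraries, with median log2 ratios of -1.97 in control and -4.94 in Flcn iΔEC. Gpihbp1, which holds lipoprotein lipase on capillaries, was at 53.9 and 9.90 CPM against 593 and 1062 CPM. Btnl9 and Cd300lg were at 18.7 and 2.12 CPM against 209 and 204 CPM, and at 20.7 and 1.41 CPM against 198 and 477 CPM. Of 16 basement membrane and collagen genes, 4 were lower (Col4a1, Col4a2, Col15a1 and Nid2) and 1 higher (Col5a2). Col4a1 and Col4a2, the chains of the main type IV collagen, were at 304 and 149 CPM in control members against 2796 and 1582 CPM in other arterial cells. In Flcn iΔEC members they were at 55.5 and 14.5 CPM against 1484 and 833 CPM. Of the control members' Gpihbp1 and Col4a1 counts, 98.7% and 84.3% came from the 14 cells with Serpinf1 alone.

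**Figure D2:**
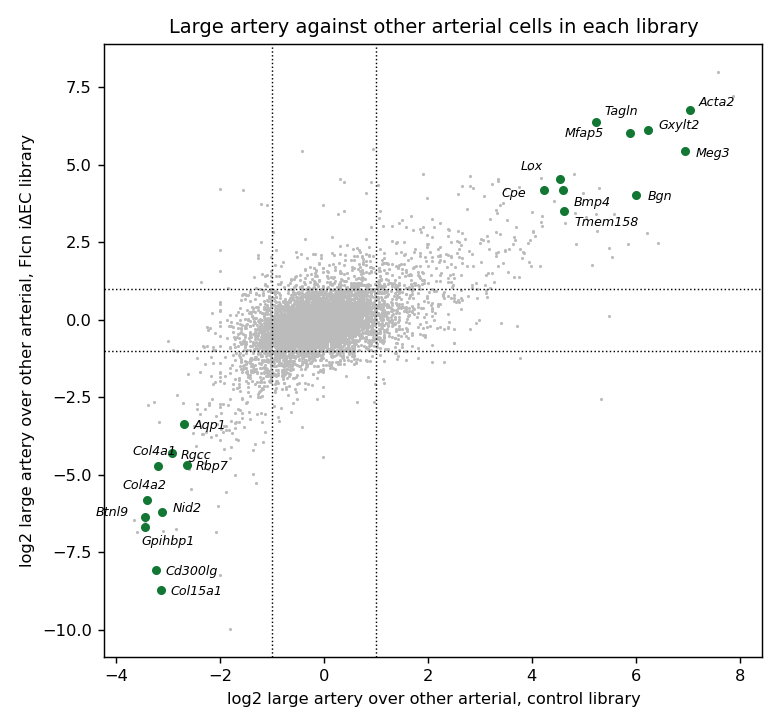
Each point is 1 of 8376 genes, by its log2 ratio of large artery over other arterial cells in the control (x) and the Flcn iΔEC library (y), with dotted lines at 2-fold. Green points are the 20 named genes with the largest ratios each way, and those lower in large artery cells lie further from 0 in the Flcn iΔEC than in the control library.

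Genes of arterial identity in general were more often lower than higher in large artery cells. The counts below stand beside 3.47% of all genes higher and 3.43% lower in both libraries. Of 18 arterial identity genes, 17 were compared, of which Bmx (a tyrosine kinase of arterial endothelium) was higher in large artery cells of both libraries and 5 were lower, namely Cxcr4, Cxcl12, Unc5b, Alox12 and Rbp7. Gja4 (connexin 37) was at 837 and 887 CPM in large artery cells and 1144 and 749 CPM in other arterial cells, so that its order was not the same in both libraries. In the Notch pathway, the ligand gene Dll1 and the target Hey2 were higher among 14 compared and 0 were lower. Hey2 was at 79.5 and 56.2 CPM against 0 and 8.33 CPM, while the ligand Dll4 was at 187 and 129 CPM against 181 and 74.9 CPM, and the receptor Notch1 at 261 and 224 CPM against 253 and 164 CPM.

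Some genes of the smooth muscle list were higher in large artery than in other arterial cells. Acta2 (smooth muscle actin) was at 365 and 453 CPM and Tagln (transgelin) at 208 and 172 CPM, with 0 and 1 Acta2 and 1 and 0 Tagln UMIs in other arterial cells. Acta2 was present in 23 of 66 control and 65 of 110 Flcn iΔEC members, and 1 control cell held 33.0% of its control counts. The Tagln gap was not stable, since its log2 ratio in control was -0.23 when Serpinf1 was left out of the rule. Of the control Acta2 counts, 33.1% lay in members with Serpinf1 alone, at 587 CPM against 307 CPM in those with Gkn3 or Cytl1. Nearly all of that 33.1% came from the 1 cell named above, and 12 of these 14 members held no Acta2 UMI. The same cell held all Tagln UMIs of the members with Serpinf1 alone. The control gap of Acta2 thus also depends on which class holds this cell. Myh11, the defining myosin of smooth muscle, was at 14.5 CPM in control and listed at 0 in Flcn iΔEC members, and only 1 control and 0 Flcn iΔEC members held both Acta2 and Myh11. Over the whole list of 10 smooth muscle and pericyte genes, summed levels were 866 and 658 CPM in large artery cells against 8.35 and 6.24 CPM in other arterial cells. Summed fibroblast markers were at 186 and 93.6 CPM against 11.1 and 0 CPM, with Col1a1, Dcn, Lum, Pdgfra and Dpt at 0 in Flcn iΔEC members. Limits for blood, fibroblast and smooth muscle UMIs then left out cells with a Ptprc UMI, at least 10 UMIs of Col1a1, Dcn and Lum, or at least 10 of Acta2, Tagln and Myh11. Cells kept could still hold fewer UMIs of the fibroblast and smooth muscle genes, and UMIs of other blood genes. The 42 and 67 members kept were set against other arterial cells within the same limits. Their log2 ratios were 5.24 and 3.14 for Eln, 4.90 and 2.02 for Mgp and 2.94 and 1.87 for Fbln5. In both libraries 204 genes were at least 2-fold higher.

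The libraries were then compared within large artery cells. Of 7805 genes with at least 50 counts, 168 (2.15%) were at least 2-fold higher and 285 (3.65%) at least 2-fold lower in Flcn iΔEC members, and the median log2 ratio was -0.12. With ratios centred on that median the counts were 218 and 202, so the split depends on the scaling. For members with Gkn3 or Cytl1 the counts were 161 higher and 218 lower. They shared 127 of the 168 (75.6%) and 169 of the 285 (59.3%). Members within the limits for blood, fibroblast and smooth muscle UMIs gave 152 higher and 297 lower, of which 88 of the 168 (52.4%) and 148 of the 285 (51.9%) were shared. In other arterial cells, where 2969 genes were compared, 115 (3.87%) were higher and 123 (4.14%) lower in the Flcn iΔEC library.

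Gdf15 and Apoe were among the 10 genes with the largest ratios of Flcn iΔEC over control large artery cells. Gdf15, a stress-induced cytokine of the TGF-beta family, was at 6.91 CPM (3.32 to 12.7) in members of the control and 370 CPM (348 to 393) in those of the Flcn iΔEC library, a ratio of 53.5 (exact 95% interval 29.0 to 112). It was present in 3 of 66 control and 82 of 110 Flcn iΔEC members, with a median of 1.86 and a maximum of 27.1 UMIs per 10000 in the latter. Thinning every cell to 2000 UMIs left a Gdf15 UMI in 0.726% and 36.2% of members, so the gap in the shares was also present at equal depth. Apoe (apolipoprotein E, a lipid carrier) was at 38.0 and 1111 CPM, a ratio of 29.2 (22.4 to 38.9), and was present in 22 and 93 cells. Both genes were also higher in the other Flcn iΔEC endothelial cells: Gdf15 was at 0 and 377 CPM in other arterial cells and 19.5 and 1201 CPM in cells with Prox1 or Lyve1, and Apoe at 189 and 2032 CPM and 363 and 1521 CPM. The gap was therefore not particular to large arteries.

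Cox8b, a subunit of mitochondrial cytochrome oxidase known from heart and skeletal muscle, was listed at 0 in control and at 146 CPM in 47 Flcn iΔEC members, at least 70.2-fold higher. Other arterial cells had 2.78 and 231 CPM of Cox8b, while Flcn iΔEC cells with Prox1 or Lyve1 had 6.51 CPM and the remaining endothelial cells 5.24 CPM. The level was thus higher in both arterial classes than in the others of that library. Ahnak2, a large scaffold protein, was at 12.4 and 254 CPM, and Anpep (aminopeptidase N, CD13) at 15.2 and 216 CPM. Anpep was at 15 and 40.6 CPM in the remaining endothelial cells and at 74.3 and 45.7 CPM in cells with Prox1 or Lyve1, where its order was the opposite. Mt1 (metallothionein 1, which binds zinc) was at 8.30 and 109 CPM, Thbs1 (thrombospondin 1) at 18 and 163 CPM, and Iigp1, an interferon-induced GTPase, at 24.9 and 131 CPM. Gm8797 was at 15.9 and 149 CPM, which is uncertain, because reads of a predicted gene may belong to a near-identical copy.

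**Figure D3:**
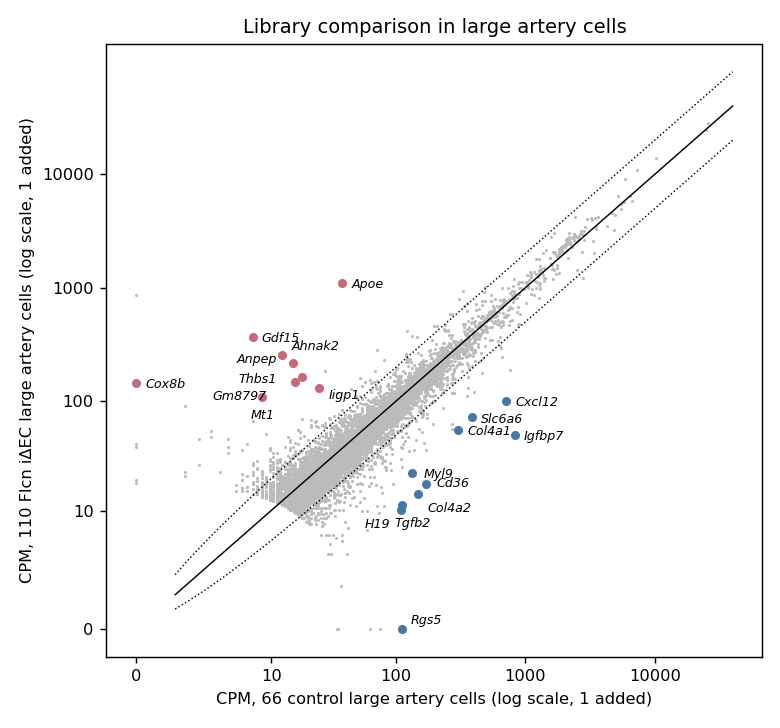
Each point is 1 of 7805 genes, by its CPM in control (x) and Flcn iΔEC (y) large artery cells on log scales with 1 added, with a line at equal levels and dotted lines at 2-fold. Red (9) and blue (10) points are named genes among those with the largest ratios each way, from Cox8b (0 and 146 CPM) to Rgs5, whose control counts come almost wholly from 1 cell.

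Genes of lysosomes and autophagy mostly had higher levels in Flcn iΔEC members, by less than 2-fold for most. Of 32 listed genes, 30 were compared, of which 26 had a ratio above 1 and 4 below it, against 2895 above 1 among all 7805 genes, and 4 were past 2-fold upward and 0 downward. Their median log2 ratio was 0.50. For members with Gkn3 or Cytl1, 5 of 30 were past 2-fold upward, 0 downward, and the median was 0.44. Cd63, a tetraspanin of late endosomes, was at 333 and 938 CPM, Npc2 (which exports cholesterol from lysosomes) at 207 and 460 CPM, Sqstm1 (p62, a receptor for autophagy cargo) at 68.4 and 183 CPM, and Gabarapl1, of the autophagosome membrane, at 51.9 and 111 CPM. Ratios were smaller for Lamp1 (492 and 764 CPM) and the protease genes Ctsb (255 and 415 CPM) and Ctsd (335 and 456 CPM). In other arterial cells 12 of 20 compared genes of the list were past 2-fold upward and 1 downward, with a median of 1.07 against -0.06 over all genes there. Among Flcn and MiT/TFE genes, 0 of 7 compared were past 2-fold in either direction, with Rragc (a Rag GTPase) at 47.0 and 82.0 CPM, Fnip1 (a folliculin partner) at 21.4 and 36.0 CPM, Tfe3 at 16.6 and 22.6 CPM and Tfeb at 35.3 and 24.0 CPM.

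The sequence CACGTG, which reads the same on both strands, was searched in promoters from 250 bases before to 50 after the start (RefSeq, GRCm38.p6). Of the 7805 genes, 6050 had a promoter in the table, and 12.3% of these held it in at least 1 promoter. The share was 12.7% (exact 95% interval 7.44 to 19.8) of 126 genes higher in Flcn iΔEC members and 7.37% (4.27 to 11.7) of 217 lower, 8 of 23 genes of the lysosome list (34.8%, 16.4 to 57.3), and 0 of 11 of the basement membrane list. Of all 32851 promoters in the table, 7.15% held it. The 8 lysosome genes with it had a median log2 ratio of 0.53 and the 15 without it of 0.57, and the 4 past 2-fold (Npc2, Cd63, Sqstm1 and Gabarapl1) were all among those without it. A stretch of 30 bases around the first match, on the strand of the gene, is shown for these 8 genes and for Gdf15, to let the flanks of each match be compared, with the motif in capitals and its first base counted from the start.
Lamp1 (chr8:13159088-13159117, plus strand, at -61): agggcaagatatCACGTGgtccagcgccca
Ctsa (chr2:164833749-164833778, plus strand, at -12): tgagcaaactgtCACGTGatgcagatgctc
Ctsd (chr7:142388048-142388077, minus strand, at -245): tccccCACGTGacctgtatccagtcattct
Ctsl (chr13:64370739-64370768, minus strand, at -236): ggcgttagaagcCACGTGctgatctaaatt
Mcoln1 (chr8:3500436-3500465, plus strand, at -71): ggtcgcgcttgtCACGTGttcagttcaggc
Atp6v0d1 (chr8:105566050-105566079, minus strand, at -3): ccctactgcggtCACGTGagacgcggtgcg
Atp6v1a (chr16:44139373-44139402, minus strand, at -131): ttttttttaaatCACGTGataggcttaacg
Atp6v0e (chr17:26676387-26676416, plus strand, at 4): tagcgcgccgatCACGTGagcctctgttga
Gdf15 (chr8:70632161-70632190, minus strand, at -83): cacagggcagggCACGTGtgagcatccagt
These matches are a description of letters, and nothing was measured here on what binds to them. Of the named genes higher in Flcn iΔEC members, 6 had a promoter in the table, and Gdf15 alone held the sequence, in 1 of its 2 promoters. Of the 10 lower, 8 had a promoter, and Tgfb2 alone held it.

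Chemokine, adhesion and heat shock genes were also higher in part. Beside the 2.15% of all genes past 2-fold upward, 5 of 12 chemokine and adhesion genes compared were so in Flcn iΔEC members and 0 were past it downward, with a median log2 ratio of 0.81. Icam1 and Vcam1, which bind leukocyte integrins, were at 80.9 and 229 CPM and at 54.6 and 137 CPM, and were present in 45 and 95 and in 23 and 64 cells. Bst2 (tetherin, induced by interferon) was at 306 and 791 CPM with medians of 2.06 and 7.40 UMIs per 10000. Cxcl1 and Cxcl2 passed 2-fold on few cells, 12 and 23 and 5 and 18, and the Cxcl2 log2 ratio went from 1.11 to -0.06 without the members past the limits for blood, fibroblast and smooth muscle UMIs. Of 11 heat shock genes, Hspa1a (197 and 460 CPM) and Hspa1b (62.9 and 154 CPM) were past 2-fold upward and 0 downward. Of 8 stress response genes, Gdf15 and Atf3 were past 2-fold upward and 0 downward. Both lists are short, and each count is to be read against the same 2.15% of all genes. Blood cell markers ran the other way, with summed levels of 559 and 413 CPM over 10 genes, and Ptprc (CD45) was present in 14 of 66 and 16 of 110 members. Their part in these values was not tested.

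**Figure D4:**
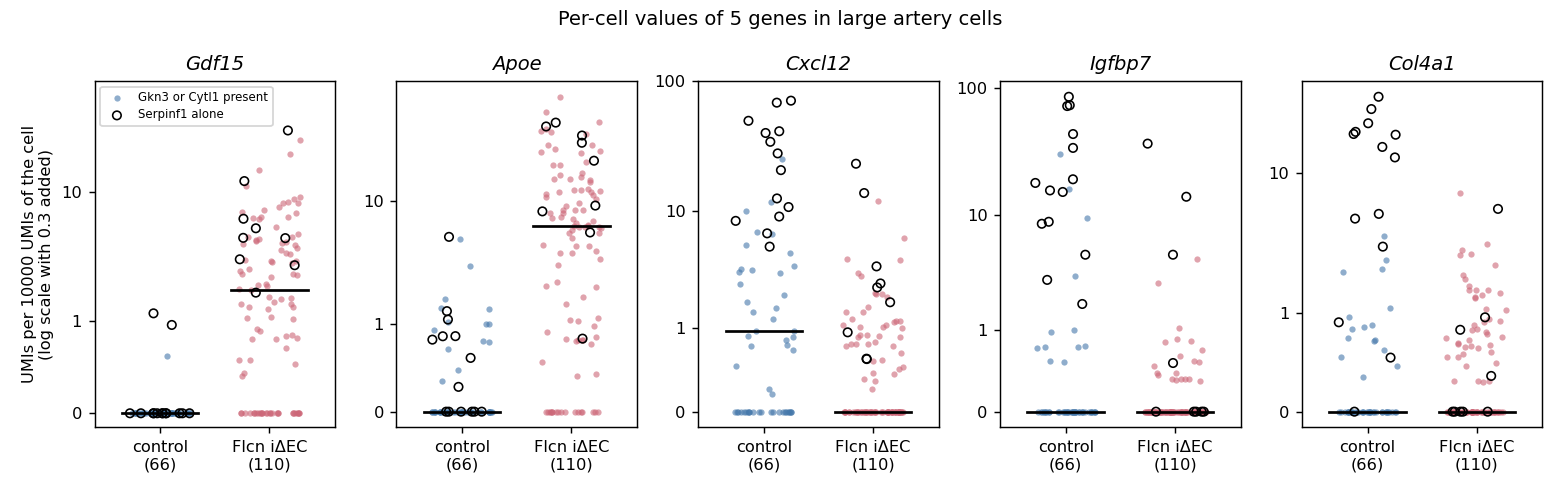
Points are large artery cells, the y axis gives UMIs per 10000 UMIs of the cell on a log scale with 0.3 added, lines are medians, and open circles are the 14 control and 9 Flcn iΔEC members with Serpinf1 alone of the 3 rule genes. Gdf15 and Apoe are higher in Flcn iΔEC cells of both kinds, while most of the high control values of Cxcl12, Igfbp7 and Col4a1 are open circles.

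Several genes lower in Flcn iΔEC members had most of their control counts in the 14 cells with Serpinf1 alone. Col4a1 was at 304 and 55.5 CPM, but 84.3% of its control counts came from those cells, and in members with Gkn3 or Cytl1 it was at 60.1 and 54.4 CPM, a ratio of 0.904 (0.674 to 1.22). Col4a2, which starts 21 bases from Col4a1 on the opposite strand of chromosome 8, was at 149 and 14.5 CPM in all members and at 19.2 and 15 CPM in those with Gkn3 or Cytl1, a ratio of 0.785 (0.454 to 1.39). The gap of both collagen genes was thus not seen without those cells. Rgs5 and Myl9, of pericytes and smooth muscle, had 99.4% and 52.1% of their control counts in 1 cell each.

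Other genes were lower in Flcn iΔEC members with and without those cells. Igfbp7, an insulin-like growth factor binding protein of the vessel wall, was at 831 and 50.2 CPM in all members. In members with Gkn3 or Cytl1 it was at 293 and 14.3 CPM, a ratio of 0.0486 (0.0336 to 0.0684). It was present in only 12 of 52 and 20 of 101 of the latter cells. Most of its 337 control counts there lay in a cell of 90239 UMIs and a cell of 50019 UMIs. These cells held 16.2 and 30.4 Igfbp7 UMIs per 10000, against an upper quartile of 0 over the 52 control cells. The ratio thus rests largely on them, and its size without both was not computed. Cxcl12, the chemokine of arterial endothelium that binds CXCR4, was at 713 and 101 CPM in all members. In those with Gkn3 or Cytl1 it was at 232 and 67.5 CPM, a ratio of 0.291 (0.239 to 0.354), and was present in 29 of 52 and 43 of 101 cells. Other arterial cells had 2353 and 1130 CPM of Cxcl12. Cd36, a fatty acid transporter, was at 171 and 18 CPM in all members and at 56.6 and 5.40 CPM in those with Gkn3 or Cytl1, Tgfb2 at 111 and 11.3 CPM and at 34.0 and 7.71 CPM, and Slc6a6 (the taurine transporter) at 389 and 71.7 CPM and at 163 and 43.2 CPM. H19, an imprinted noncoding RNA, was at 109 and 10.2 CPM with 15 cells in each library, and 39.5% of its control counts came from 1 cell.

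Klf2, Jag1 and Sox17, which most members expressed, were lower in Flcn iΔEC cells with and without the cells that held Serpinf1 alone. Klf2, a transcription factor induced by laminar flow, was at 2815 and 1233 CPM in all members and at 2853 and 1219 CPM in those with Gkn3 or Cytl1, a ratio there of 0.427 (0.407 to 0.449). Its median per cell was 24.9 and 11.2 UMIs per 10000. Jag1, a Notch ligand, was at 467 and 179 CPM in all members and at 488 and 173 CPM in those with Gkn3 or Cytl1, a ratio there of 0.355 (0.313 to 0.403), with medians of 4.31 and 1.38 UMIs per 10000 over all members. Sox17, a transcription factor of arterial specification, was at 646 and 298 CPM in all members and at 545 and 284 CPM in those with Gkn3 or Cytl1, where its ratio of 0.520 (0.467 to 0.580) was no longer past 2-fold. In other arterial cells Klf2 was at 1584 and 1157 CPM, Jag1 at 206 and 152 CPM and Sox17 at 1014 and 701 CPM. Klf2, Jag1 and Sox17 thus had the same direction there and smaller gaps, and the difference between the classes was not tested. Other genes of the same lists had ratios above 1 in members with Gkn3 or Cytl1, among them Gja4 at 1.22 (1.13 to 1.33) and Bmx at 1.24 (1.09 to 1.42). Of 17 shear stress and vasoactive genes compared over all members, Klf2 alone was past 2-fold downward (5.88%, against 3.65% of all genes) and 0 upward, with a median log2 ratio of -0.24. For members with Gkn3 or Cytl1 the median was -0.35, with 1 downward and 1 upward, against 2.96% and 2.19% of all genes. The latter was Ednrb, at 27.0 and 64.0 CPM, a ratio of 2.37 (1.61 to 3.60).

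Of all genes compared, 3.65% were past 2-fold downward over all members and 2.85% when Serpinf1 was left out of the rule. Without the cells past the limits for blood, fibroblast and smooth muscle UMIs this share was 5.29%. By list, 5 of 16 arterial identity genes compared were past 2-fold downward and 0 upward, with a median log2 ratio of -0.85. The count became 2 of 15 with a median of -0.61 when Serpinf1 was left out. It became 9 of 16 with -1.11 without the cells past the limits for blood, fibroblast and smooth muscle UMIs. Of 15 basement membrane and collagen genes, 8 were past 2-fold downward with a median of -1.10, 3 of 14 with -0.69 when Serpinf1 was left out, and 9 of 14 with -1.10 without the cells past those limits. Of the Notch genes, Jag1 and Jag2 were past 2-fold downward among 14 compared with a median of -0.22, and without Serpinf1 in the rule 2 were past it with -0.23. The elastic fibre list held a median of -0.01 over 15 genes, with Thbs1 upward and Ltbp1 and Efemp2 downward. Its median was -0.19 over 14 genes when Serpinf1 was left out. It was 0.38 over 12 genes without the cells past the limits for blood, fibroblast and smooth muscle UMIs. Among the genes of the rule, Gkn3 was at 644 and 306 CPM, Gja5 at 437 and 352 CPM, Cytl1 at 534 and 529 CPM and Serpinf1 at 387 and 297 CPM, which is a description, since the rule set a floor on them.

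**Figure D5:**
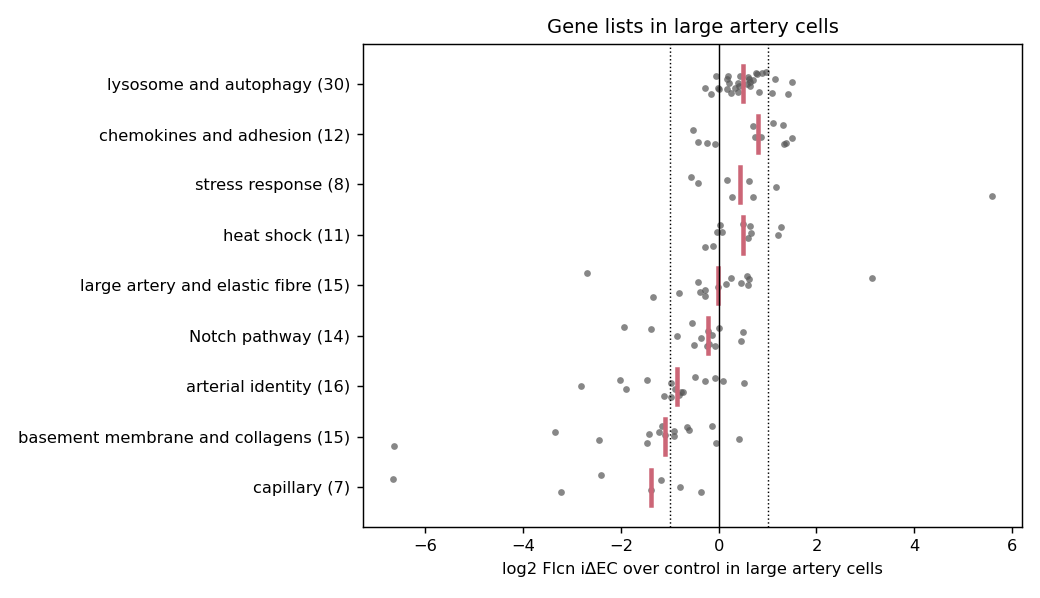
Points are genes, by their log2 ratio of Flcn iΔEC over control in large artery cells, red bars are list medians, and the number of genes compared stands in brackets. The lysosome and autophagy genes lie mostly right of 0 (26 of 30), and those of the basement membrane mostly left of it (14 of 15), where 4910 of all 7805 genes also lie. Col15a1 and the capillary gene Esm1, both at 0 counts in Flcn iΔEC members, lie far to the left.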

How the data were processed

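The authors prepared droplet-based 3′ libraries from pooled CD31+ cells, and the deposited values are raw UMI counts per gene and cell, made by the authors with Cell Ranger 3.0 on build mm10 per the submitters' processing notes. The annotation version is not given in the sources used here. Of 28625 gene symbols, 28316 were placed with GENCODE annotation on GRCm38. Counts were read in Python 3.11.15 (numpy 2.4.6, scipy 1.17.1, pandas 2.3.3), doublets were called with Scrublet in scanpy 1.11.5, and figures were drawn with matplotlib 3.10.9.

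Members were found by the stated rule. Their UMIs were summed per library and scaled to CPM. Log2 ratios used 1 added count and genes with at least 50 summed counts, and 2-fold was the limit for naming. Exact intervals were computed at 95%, and the scripts were tested on simulated data. Named genes were the rule genes and markers, listed genes, and the 10 largest ratios each way with at least 100 CPM. Sex-linked Xist was skipped, and 1 gene that met the rule is not reported here. The members and gene lists were chosen with earlier results of these data known. With 1 library per genotype nothing was tested. Cell Ranger's cell calling and the RNA freed by broken cells can move low values.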

Additional observations from a re-analysis of the deposited data

Results flagged for a closer look

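Genes that were past 2-fold in one direction in large artery cells and past 2-fold in the other in other arterial cells numbered 3, and the difference between the classes was not tested for any of them. Atf3, a stress-induced transcription factor, had log2 ratios of Flcn iΔEC over control of 1.17 in large artery cells (64.3 and 146 CPM) and -1.06 in other arterial cells (175 and 83.3 CPM). In other arterial cells 8 control and 9 Flcn iΔEC cells held it, and 1 control cell held 44 of the 63 counts. Esm1, a gene of angiogenic capillaries, had -6.67 in large artery cells (35.3 and 0 CPM) and 1.51 in other arterial cells (123 and 356 CPM). Of its control counts in large artery cells, 98.0% came from cells with Serpinf1 alone, and 1 cell held 23 of 51. Upp1 (uridine phosphorylase 1) had -1.18 in large artery cells (35.3 and 15.5 CPM) and 1.06 in other arterial cells (64.0 and 137 CPM), where 1 Flcn iΔEC cell held 31 of 66 counts.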

How the results depend on the processing

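Of 18 alternatives, 16 were planned and 2 were chosen after seeing the data (leaving out the highest cell of each gene, and leaving out members without a Gkn3 or Cytl1 UMI). Leaving Serpinf1 out of the rule moved the share of arterial cells to 52.0% in control and 73.9% in Flcn iΔEC, and the control share of non-cycling Cdh5 cells to 11.2%. A limit of 4 UMIs for Gkn3, Cytl1 and Serpinf1 also gave 73.9% in Flcn iΔEC, and leaving out cells past the limits for blood, fibroblast and smooth muscle UMIs gave 11.7% of its non-cycling Cdh5 cells and 154 genes lower than in other arterial cells. Applying the rule after thinning to 2000 UMIs left 4 control and 8 Flcn iΔEC members, 1.80% and 2.97% of non-cycling Cdh5 cells and 50% and 57.1% of arterial cells, with 37 genes higher and 33 lower in Flcn iΔEC and 26 higher and 24 lower than in other arterial cells. On so few cells the log2 ratio of Igfbp3 turned to 2.11, and against other arterial cells those of Gja5, Bmx and Ltbp4 in Flcn iΔEC turned to -0.15, -0.31 and -0.09. Thinning each member to 2000 UMIs gave 28 higher and 36 lower between libraries and 69 and 42 between classes. A minimum of 20 counts gave 299 and 568 between libraries and 474 lower between classes, and a minimum of 200 counts gave 60 and 70, and 179 and 101, since fewer counts admit or remove genes. Tagln against other arterial cells turned to -0.23 in control when Serpinf1 was left out, and Cxcl2 to -0.06 without cells past the limits for other cell types' UMIs. The cause was not tested for the other shifts. Of 177 gene values, 42 stayed within their counting interval under every alternative run. Counted over each gene value and alternative, 2459 recomputed values did so, 498 moved and 6 turned direction. No paired analysis was possible because each genotype has 1 library. Counting depth limits genes under the 50-count minimum.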

Other observations

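Clotting genes of large artery cells differed in direction between the libraries. Plat, the tissue plasminogen activator, was at 51.9 and 161 CPM in control and Flcn iΔEC members, a ratio of 3.11 (2.43 to 4.02), and was present in 29 of 66 and 75 of 110 cells. Cells with Prox1 or Lyve1 had 88.1 and 1272 CPM of Plat. Procr, the endothelial receptor of protein C, was at 122 and 239 CPM, and Tfpi, an inhibitor of the tissue factor pathway, at 36.0 and 17.3 CPM.

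The 11 lymphatic genes summed to 128 and 206 CPM in large artery cells, against 3632 and 6002 CPM in cells with Prox1 or Lyve1. Prox1, the master regulator of lymphatic fate, gave 1 UMI in 1 control and 14 UMIs in 9 Flcn iΔEC members (0.691 and 4.95 CPM, ratio 7.16 with an interval of 1.09 to 303), against 366 and 388 CPM in cells with Prox1 or Lyve1. Those cells were chosen by Prox1 and Lyve1, so their Prox1 level and part of their summed level are a description. In large artery cells Lyve1 gave 4 and 39 UMIs, of which 1 Flcn iΔEC cell held 28. Flt4 (VEGFR3) was at 11.8 and 30.4 CPM, present in 13 and 49 cells. Itga9, an integrin chain of lymphatic valves, was at 69.1 and 95.4 CPM in large artery cells. Foxc2, a transcription factor of lymphatic valves, was at 39.4 and 36.8 CPM in large artery cells and at 0 and 6.24 CPM in other arterial cells.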
